A study of Mus musculus with 6 samples.

Results

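The genes that write, remove and read DNA methylation were followed in mouse hematopoietic stem cells (HSCs) 1 day after insulin-like growth factor 1 (IGF1). They are the maintenance writers Dnmt1 and Uhrf1, the de novo writers Dnmt3a and Dnmt3b, the erasers Tet1, Tet2 and Tet3, the glycosylase Tdg and the reader Mbd2. These 9 genes were chosen by symbol, from 21878 rows in each library, and all 9 were expressed highly enough to be tested. Wild-type C57BL/6 mice were given recombinant mouse IGF1 subcutaneously or vehicle, and HSCs were sorted from their bone marrow as CD34-Flk2-Lineage-Sca1+c-Kit+ cells. There were 3 RNA-seq libraries of the vehicle group (control) and 3 of the IGF1 group. The extraction note of the samples speaks of irradiated mice where the treatment label says IGF1, and the treatment label was followed. Sex, age and the number of mice behind each library are not given in the sources used here, nor is it stated that libraries came from separate mice, so p-values measure only the spread between these libraries.

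In mammals, DNA is methylated mostly at the cytosine of CpG. After replication UHRF1 recognizes the CpG sites left methylated on the old strand only and brings in DNMT1, which copies the mark, while DNMT3A and DNMT3B methylate sites that were unmethylated. The TET enzymes oxidize 5-methylcytosine, and TDG cuts out the oxidized bases so that base excision repair can restore plain cytosine. MBD2 binds methylated CpG and carries the NuRD repressor complex. In the blood system DNMT3A and TET2 are among the genes most often mutated in clonal hematopoiesis, and loss of DNMT1 is known to deplete HSCs. RNA levels were measured here, and neither DNA methylation nor protein.

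The promoters of the 4 members whose libraries did not overlap between the groups (Dnmt1, Uhrf1, Tdg and Tet3, below) are shown with that of Tet2, which held the most CpG sites. Each is the 250 bases before the start site that RefSeq gives (GRCm38.p6), 5′ to 3′, with CpG in capitals.
Dnmt1 promoter, chr9:20952980-20953229, minus strand: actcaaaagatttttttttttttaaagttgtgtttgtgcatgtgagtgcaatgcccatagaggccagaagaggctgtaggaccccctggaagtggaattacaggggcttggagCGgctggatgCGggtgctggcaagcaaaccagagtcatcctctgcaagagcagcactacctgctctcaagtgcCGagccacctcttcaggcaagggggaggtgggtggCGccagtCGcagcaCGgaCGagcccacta
Uhrf1 promoter, chr17:56303087-56303336, plus strand: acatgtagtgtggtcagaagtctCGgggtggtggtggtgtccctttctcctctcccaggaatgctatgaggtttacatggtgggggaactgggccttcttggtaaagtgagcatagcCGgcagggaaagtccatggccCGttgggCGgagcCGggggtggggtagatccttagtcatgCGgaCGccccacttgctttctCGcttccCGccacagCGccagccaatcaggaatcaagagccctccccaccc
Tdg promoter, chr10:82629588-82629837, plus strand: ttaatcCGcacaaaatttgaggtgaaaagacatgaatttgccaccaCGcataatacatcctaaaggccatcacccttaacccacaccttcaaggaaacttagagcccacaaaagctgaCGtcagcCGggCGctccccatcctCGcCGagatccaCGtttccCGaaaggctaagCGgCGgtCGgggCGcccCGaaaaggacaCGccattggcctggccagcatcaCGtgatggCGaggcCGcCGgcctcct
Tet3 promoter, chr6:83441679-83441928, minus strand: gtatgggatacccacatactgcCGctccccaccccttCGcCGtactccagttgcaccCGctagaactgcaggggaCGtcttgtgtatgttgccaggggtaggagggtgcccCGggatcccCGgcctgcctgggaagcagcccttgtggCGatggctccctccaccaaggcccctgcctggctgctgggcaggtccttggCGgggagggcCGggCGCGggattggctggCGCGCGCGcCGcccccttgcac
Tet2 promoter, chr3:133544391-133544640, minus strand: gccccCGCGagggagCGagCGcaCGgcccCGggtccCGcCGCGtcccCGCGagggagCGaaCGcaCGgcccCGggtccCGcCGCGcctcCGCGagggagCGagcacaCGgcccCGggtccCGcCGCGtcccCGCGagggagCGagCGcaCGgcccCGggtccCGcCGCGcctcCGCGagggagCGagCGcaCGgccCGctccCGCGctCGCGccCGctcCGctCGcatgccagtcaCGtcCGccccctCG
The Dnmt1 window held 7 CpG sites and the Uhrf1 window 10, near the median of 6 over the 27025 promoters of the same length. The Tdg, Tet3 and Dnmt3b windows held 19, 17 and 21, and the Tet1 window 15. The Dnmt3a and Tet2 windows were CpG dense, with 40 and 51 sites, more than 98.7% and 99.9% of the promoters. The E2F core (TTCCCGC or else TTCGCGC or else TTGCCGC or else TTGGCGC, on both strands) was in 8.1% of the promoters and, among the 8 members matched, in the Uhrf1 window alone, once. A match is a description of the letters and not a binding site. GENCODE transcripts of Dnmt1, Dnmt3a, Tet1, Tet2 and Tet3 also start upstream of these RefSeq starts, so that a window need not be the promoter in use, and the Tet3 window overlaps the first exon of B230319C09Rik on the opposite strand.

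Before the groups are compared, 1 library has to be set apart. Depth was 11206800 to 15973834 reads per library, on an approximate scale. Control replicates 1 and 3 differed over 2-fold in 128 genes and the IGF1 libraries from each other in 137 to 143, whereas control replicate 2 differed from control replicates 1 and 3 in 4176 and 4184 genes, but from those of IGF1 in 851 to 920 only. Control replicate 2 was used as labelled, and results are given with and without it. Whether its label is right (a swapped or mixed library) was not tested and cannot be told from the labels, so a value that includes it holds only for the libraries as labelled. Of the 10449 genes tested, 207 (1.98%) were called higher and 484 (4.63%) lower in IGF1 at a fold change over 2 and an adjusted p under 0.05, with a median log2 fold change of -0.18 over everything tested. Scaling the libraries by their 75th percentile moved this median to 0.08 and the share of higher calls from 30.0% to 61.4%. The gate excludes CD34 and Flk2 protein, yet Cd34 RNA was at 230 to 640 FPKM and Flt3 (Flk2) RNA at 117 to 188 FPKM, and the HSC marker Slamf1 was at 0.736 to 2.41 FPKM.

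The 9 members moved in different directions, with Tdg, Uhrf1 and Dnmt1 lower and Tet3 higher in the IGF1 libraries than in any control library. By the limma test, 0 of 9 members were called, where 6.61% of all genes were. At an unadjusted p under 0.05 there were 4 members, of which 2 (Uhrf1 and Tdg) also passed the fold, where 1743 of the 10449 genes tested met both. Limma-voom on recovered reads likewise gave 0 calls among the members, with 4 at that p. Groups that do not overlap were common in these data, with IGF1 lower in 37.4% and higher in 21.9% of all genes (59.4% either way), so that 3 lower and 1 higher among 9 is close to the background. Without control replicate 2, 3 members (Dnmt1, Uhrf1 and Tdg) were called lower and 1 (Mbd2) higher, where 20.6% and 12.3% of all genes were (32.9% either way). Then 8 of 9 members passed the adjusted p alone, as did 88.5% of all genes. The p-values of that fit rest on a spread between libraries that was not far above read sampling. With 3 libraries against 3, an exact permutation test cannot go below p = 0.1.

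**Figure D1:**
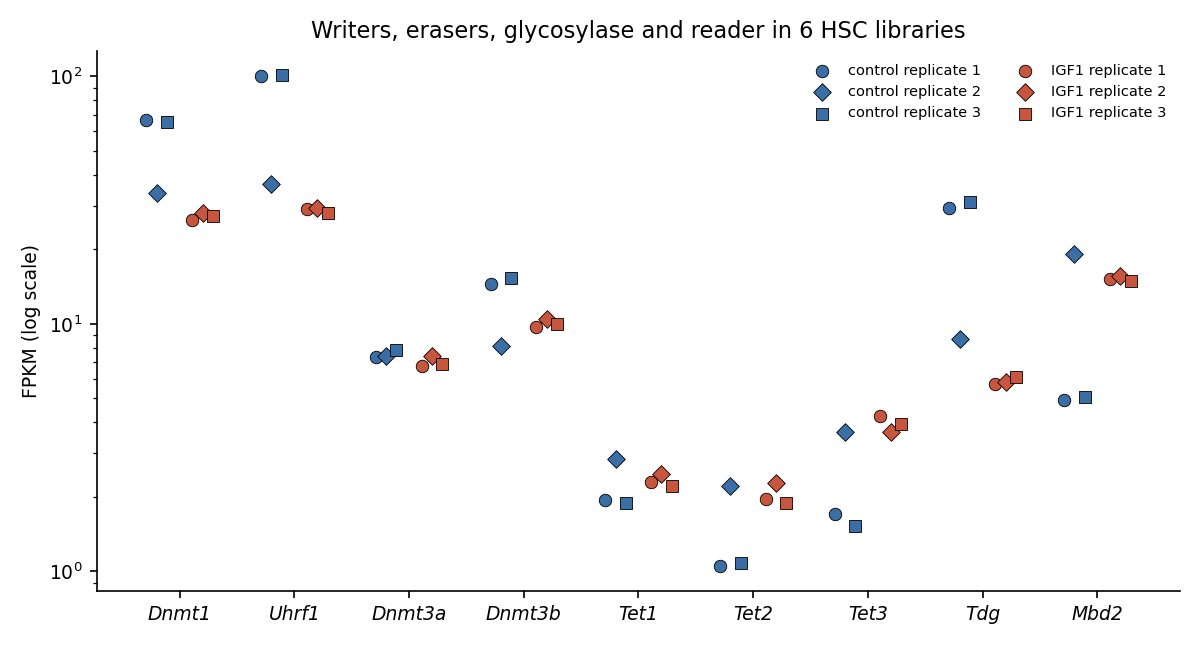
FPKM of the 9 genes (log axis) in each of the 6 libraries, 1 point per library. Control replicate 2 (blue diamonds) lies near the IGF1 libraries (red) for most genes, and the IGF1 points lie close together, as for Tdg at 5.71 to 6.11 FPKM.

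Uhrf1, the most abundant member in every library, stood at 100, 36.9 and 101 FPKM (fragments scaled to gene length and library depth) in control replicates 1, 2 and 3, and at 29.1, 29.5 and 28.02 FPKM in IGF1 replicates 1, 2 and 3. All IGF1 libraries were below all controls, and control replicate 2 was far nearer to them than to the other controls. The means were 79.3 ± 36.7 and 28.9 ± 0.765 FPKM (SD, n = 3 each). The log2 fold change was -1.29 (SE 0.40, adjusted p = 0.0579), and -1.76 (SE 0.04, adjusted p = 8.2e-11) without control replicate 2. In bulk samples, fewer cells of a type and less RNA per cell cannot be told apart.

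Dnmt1, which copies methylation onto new strands, had the same shape at a smaller size. Its levels were 66.4, 33.7 and 65.5 FPKM in control and 26.2, 28.02 and 27.2 FPKM in IGF1, without overlap. The means were 55.2 ± 18.6 and 27.1 ± 0.909 FPKM. The log2 fold change was -0.94 (SE 0.27, adjusted p = 0.0540). It became -1.25 (adjusted p = 1.4e-09) without control replicate 2, and -1.12 (adjusted p = 0.0491, a call) once trends with transcript length and GC content were removed from each library. Uhrf1 exceeded Dnmt1 by 1.51 and 1.54 times in control replicates 1 and 3, by 1.09 times in control replicate 2 and by 1.03 to 1.11 times in IGF1.

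These maintenance writers act at replication forks, and the levels of proliferation genes leaned the same way in the same libraries. Of 14 proliferation markers tested, 2 (Ccnb1 and Rrm2) were called lower and 0 higher, where 4.63% and 1.98% of all genes were. Without control replicate 2, 9 were called lower and 1 (Mki67) higher, where 20.6% and 12.3% of all genes were. The median log2 fold change of the markers was -0.97, and -1.27 without that library. Their summed level was 2098, 1346 and 2120 FPKM in control and 1009 to 1018 FPKM in IGF1. Mki67 went the other way, at 7.55 and 7.83 FPKM in control replicates 1 and 3 against 23.3 to 24.9 FPKM in IGF1, with control replicate 2 close to the latter. The part of these levels in the Dnmt1 and Uhrf1 values was not tested.

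Tdg, the glycosylase that excises oxidized methylcytosine, showed the widest difference of the 9. Control replicates 1, 2 and 3 held 29.3, 8.68 and 31.0 FPKM and the IGF1 libraries 5.71, 5.84 and 6.11 FPKM. The groups did not overlap, although control replicate 2 lay 77.4% of the way from the other controls to IGF1 on the log2 scale. Means of 23.0 ± 12.4 and 5.89 ± 0.205 FPKM gave a log2 fold change of -1.61 (SE 0.47, adjusted p = 0.0540), which was -2.18 (adjusted p = 2.5e-10) without control replicate 2 and -1.27 with length and GC trends removed (adjusted p = 0.0540). The pseudogene Tdg-ps, which could share reads, was listed at 0.382 FPKM or less, and Glt8d2, whose exons share 367 bases with Tdg on the opposite strand, at 0.889 FPKM or less. The profiles closest to Tdg over the 6 libraries, by root mean square difference of centred log2(FPKM + 1), were those of Ect2 (0.038), Plk4 (0.045) and Ppp2r1b (0.047). Ect2 is a cytokinesis factor and Plk4 a centriole kinase.

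The de novo writers differed less. Dnmt3a was nearly level, at 7.37, 7.39 and 7.84 FPKM in control and 6.78, 7.40 and 6.89 FPKM in IGF1. The groups overlapped, and the log2 fold change of -0.09 (SE 0.11, adjusted p = 0.498) turned to 0.18 under 75th percentile scaling, 0.17 under quantile normalization and 0.07 under median ratio scaling, and went to -0.46 (adjusted p = 0.0644) with length and GC trends removed. The value was -0.10 (adjusted p = 0.162) without control replicate 2. Dnmt3a was also the member in which control replicate 2 differed least from the other controls.

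Dnmt3b was at 14.5, 8.18 and 15.4 FPKM in control and 9.73, 10.5 and 9.95 FPKM in IGF1. Here control replicate 2 was the lowest of the 6 libraries, below IGF1, and the groups overlapped. The log2 fold change was -0.26 (SE 0.24, adjusted p = 0.377), and -0.53 (adjusted p = 9.7e-06, under the fold threshold) without that library, and it turned to 0.07 under quantile normalization and 0.02 under 75th percentile scaling. Dnmt3b exceeded Dnmt3a by 1.97 and 1.96 times in control replicates 1 and 3, by 1.11 times in control replicate 2 and by 1.42 to 1.44 times in IGF1.

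The erasers were the least abundant members, with mean levels at the 8.2, 13.1 and 18.6 percentile of the genes tested for Tet2, Tet1 and Tet3. Tet3 had 1.71, 3.64 and 1.52 FPKM in control and 4.24, 3.64 and 3.93 FPKM in IGF1. The groups parted only because IGF1 replicate 2 was above control replicate 2 in a digit not printed here. The log2 fold change was 0.64 (SE 0.25, adjusted p = 0.0849), 0.92 without control replicate 2 (adjusted p = 2.1e-06, under the fold threshold) and 0.14 with length and GC trends removed (adjusted p = 0.411). Tet3 rests on 324 to 695 reads per library, and its longest transcript is 10904 bases, against a median of 3240 bases over all genes tested.

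Tet2, which oxidizes methylcytosine across much of the genome in blood cells, was at 1.05, 2.21 and 1.08 FPKM in control and 1.96, 2.29 and 1.88 FPKM in IGF1, from 158 to 243 reads. The groups overlapped through control replicate 2. The log2 fold change was 0.34 (SE 0.20, adjusted p = 0.185), and 0.56 (adjusted p = 1.5e-04) without that library.

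Tet1 was at 1.94, 2.85 and 1.88 FPKM in control and 2.30, 2.48 and 2.20 FPKM in IGF1. Control replicate 2 was the highest of the 6 libraries. The log2 fold change of 0.06 (SE 0.14, adjusted p = 0.740) became 0.19 without it (adjusted p = 0.0363) and -0.18 with length and GC trends removed. All 3 Tet estimates were above 0 on the values as deposited, and 0 of 3 were called with or without control replicate 2.

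Mbd2, the reader, was called without control replicate 2 although its groups overlapped with it. The controls held 4.94, 19.2 and 5.07 FPKM and the IGF1 libraries 15.2, 15.6 and 14.9 FPKM. Control replicate 2 was above every IGF1 library, and control replicates 1 and 3 were far below them. The means of 9.74 ± 8.20 and 15.2 ± 0.346 FPKM gave a log2 fold change of 0.85 (SE 0.49, adjusted p = 0.185), and 1.43 (SE 0.05, adjusted p = 3.5e-09) without that library. With length and GC trends removed from all 6 libraries it was 0.54 (adjusted p = 0.301).

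**Figure D2:**
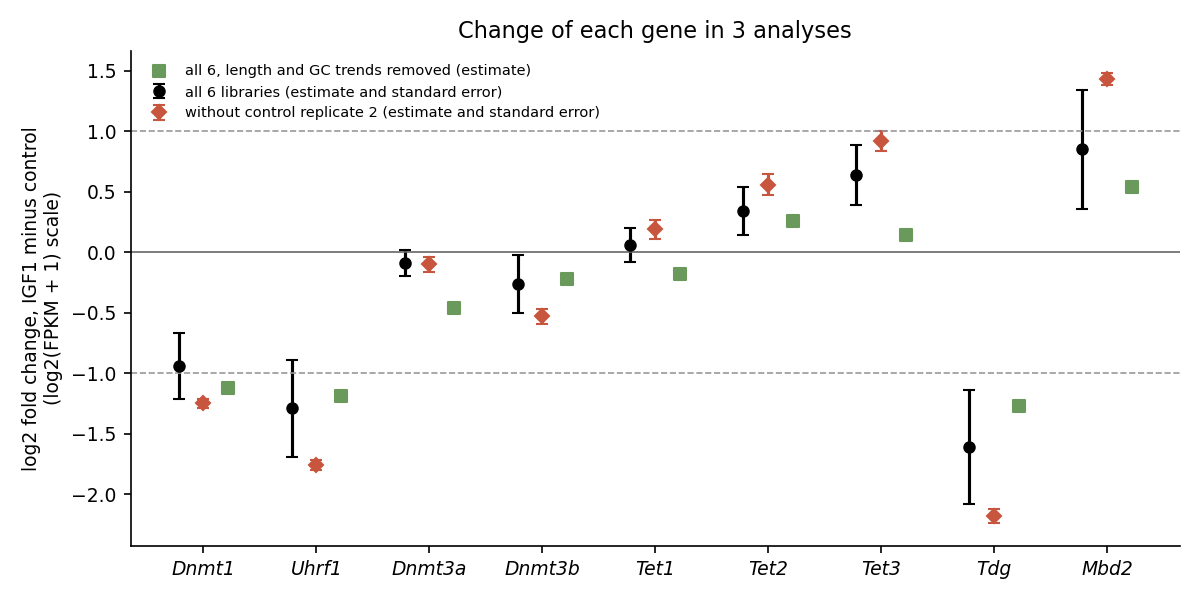
Log2 fold change of each gene, IGF1 minus control, on log2(FPKM + 1): all 6 libraries (black, bars are SE), without control replicate 2 (red, bars are SE) and all 6 with length and GC trends removed (green). Dashed lines mark a 2-fold change; without control replicate 2 the SE shrinks, for Tdg from 0.47 to 0.06.

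Side by side, the profiles were compared by a distance that depends on the size of a change as well as on its shape. Nearly flat profiles are thus close to each other whatever their shape. Tdg and Uhrf1 were 0.19 apart (root mean square difference of centred log2 values over the 6 libraries), and Dnmt1 was 0.239 from Uhrf1. Dnmt1 was nearer to Dnmt3b (0.342) than to Tdg (0.42). Tet1 was 0.165 from Tet2 and nearly as close to the writer Dnmt3a (0.168), but 0.334 from Tet3. Dnmt3a stayed within -0.09 to 0.1 of its mean in every library, so its closeness to Tet1 does not show a shared shape. Tet1, like Tet3, was above its mean in control replicate 2 and below it in control replicates 1 and 3. Tet2 and Tet3 were 0.194 apart, while Tdg and Mbd2, at 1.682, were the least alike pair. These are descriptions over 6 libraries and all of them include control replicate 2.

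**Figure D3:**
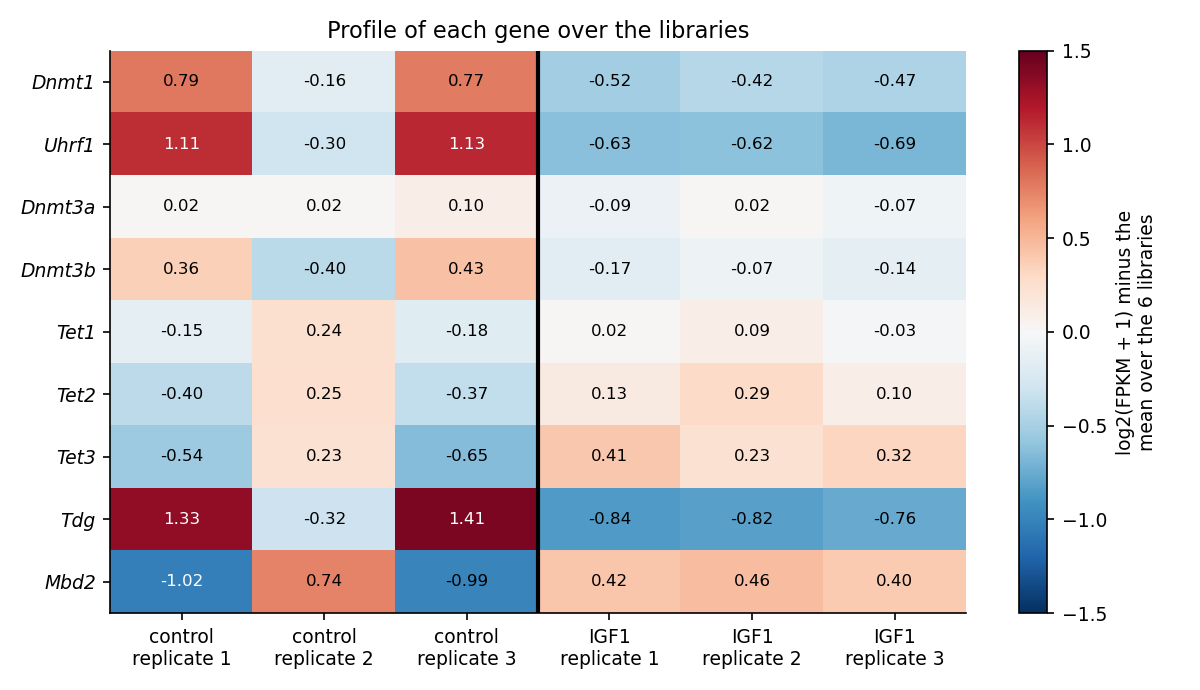
Log2(FPKM + 1) of each gene minus its mean over the 6 libraries (color and printed value), controls left of the black line and IGF1 right of it. Control replicate 2 has the sign of the IGF1 libraries for Dnmt1, Uhrf1, Tdg, Dnmt3b, Tet2, Tet3 and Mbd2, for Mbd2 at 0.74 against 0.40 to 0.46.

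The order of the members also differed between libraries. Control replicates 1 and 3 ran, per length, from Uhrf1 through Dnmt1, Tdg, Dnmt3b, Dnmt3a, Mbd2, Tet1 and Tet3 to Tet2. In each IGF1 library Mbd2 stood behind Dnmt1 and Tdg behind Dnmt3a, and Tet3 was above Tet1. Control replicate 2 shared the early place of Mbd2, with Tdg next. Tdg exceeded Mbd2 by 5.92 and 6.10 times in control replicates 1 and 3, but was at 0.452 of Mbd2 in control replicate 2 and at 0.375 to 0.410 of it in IGF1. Dnmt1 exceeded Tet2 by 63.2, 15.3 and 60.4 times in the controls and by 12.3 to 14.4 times in IGF1. In the IGF1 libraries, Uhrf1 and Dnmt1 were within 1.11 times of each other, and ordered by the mean of all 3 control libraries, neighbors such as Tet1 and Tet3 or Dnmt3b and Mbd2 did not differ beyond their spread.

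The wider machinery was read from 7 lists of partners, readers, repair and supply genes. Of 70 genes listed, 61 were tested, 1 was called higher and 4 lower, with a median log2 fold change of -0.40 against -0.18 over all genes. Without control replicate 2 the calls were 6 higher and 18 lower, where 12.3% and 20.6% of all genes were called. With length and GC trends removed from all 6 libraries there were 0 calls in either direction, since the 5 genes then missed the fold or the adjusted p. Leaving out any 1 library other than control replicate 2 left 0 genes called among all genes by limma, with 685 to 1181 past the fold at an unadjusted p under 0.05. The percent of all genes called, 1.98% higher and 4.63% lower, is the background for the calls of each list with all 6 libraries. Without control replicate 2 that background is 12.3% higher and 20.6% lower. For genes whose groups do not overlap, with all 6 libraries, it is 37.4% with IGF1 lower and 21.9% with IGF1 higher.

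Among 7 maintenance partners tested, 0 were called in either direction and 5 did not overlap, all lower in IGF1, as were 37.4% of all genes. Cdca7, which recruits the remodeler HELLS to sites left methylated on 1 strand, was at 200.4, 94.3 and 199.5 FPKM against 74.3 to 77.4 FPKM (log2 fold change -1.02, adjusted p = 0.0560). Its paralog Cdca7l was at 51.5, 8.52 and 53.0 FPKM against 7.71 to 8.13 FPKM (-1.74, adjusted p = 0.0857). Pcna, the replication clamp, was the most abundant partner, and control replicate 2 was not low for it, at 419, 485 and 426 FPKM against 309 to 314 FPKM (-0.51, adjusted p = 0.0459, under the fold threshold). The values were, without control replicate 2, -1.38 for Cdca7 and -2.57 for Cdca7l, both calls, and -0.44 for Pcna. In that fit 3 of the 7 were called lower, as were 20.6% of all genes.

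Of 4 genes that direct de novo methylation, 1 was called higher. Ehmt2, the H3K9 methyltransferase G9a, rose from 15.0, 30.0 and 15.3 FPKM to 40.5, 42.7 and 39.9 FPKM (log2 fold change 1.07, SE 0.27, adjusted p = 0.0466), a call lost with length and GC trends removed (0.82, adjusted p = 0.0702). Setd2, the H3K36 methyltransferase, had 0.40 (adjusted p = 0.192), and Trim28, the abundant corepressor of zinc finger proteins, 0.03 (adjusted p = 0.788). Among 6 methyl-CpG reader genes 0 were called. Mbd6 had the widest difference, at 1.09, 9.05 and 1.16 FPKM against 15.0 to 15.4 FPKM (2.18, SE 0.62, adjusted p = 0.0526), while Zbtb4 was at 0.50 (adjusted p = 0.107). Mbd3, a NuRD subunit, was at 0.38 and turned to -0.32 with length and GC trends removed. Ehmt2 (1.38) and Mbd6 (2.93) were called higher without control replicate 2, and the values were 0.65 for Setd2, -0.02 for Trim28, 0.74 for Zbtb4 and 0.55 for Mbd3.

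The NuRD complex, which MBD2 carries to DNA, held 3 of the 4 lower calls, among 11 genes tested. Rbbp4, a histone chaperone, fell from 76.4, 39.4 and 77.6 FPKM to 26.1, 26.1 and 25.2 FPKM (log2 fold change -1.22, adjusted p = 0.0412). The deacetylase Hdac2 fell from 133, 52.6 and 132 FPKM to 34.0 to 37.2 FPKM (-1.45, adjusted p = 0.0467), and Rbbp7, the paralog of Rbbp4, from 389, 137 and 390 FPKM to 91.1 to 97.2 FPKM (-1.55, adjusted p = 0.0498). The Rbbp7 call was lost under most alternative settings, with a limma adjusted p of 0.0502 at pseudocount 0.1 and 0.0532 under median ratio scaling. Other subunits had the opposite sign. The remodeler Chd3 was at 2.32, 12.4 and 2.42 FPKM against 17.3 to 19.2 FPKM (1.85, adjusted p = 0.0553), and in all 4 subunits were higher and 6 lower in every IGF1 library than in any control, where 21.9% and 37.4% of all genes were. Without control replicate 2, 4 subunits were called higher and 6 lower, where 12.3% and 20.6% of all genes were. The values were then -1.54 for Rbbp4, -1.89 for Hdac2, -2.05 for Rbbp7 and 2.52 for Chd3. RBBP4, RBBP7 and HDAC2 also belong to other chromatin complexes.

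**Figure D4:**
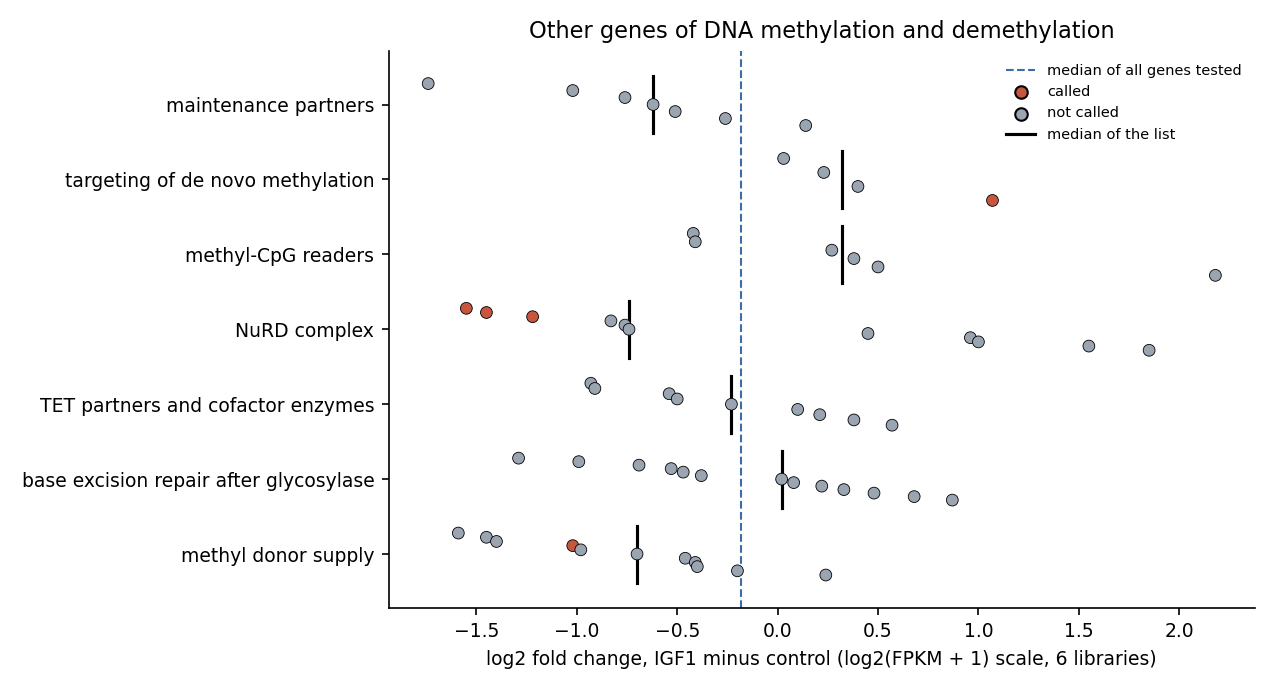
Log2 fold change (IGF1 minus control, log2(FPKM + 1) scale, 6 libraries) of each tested gene in 7 lists, 1 point per gene, with called genes in red, list medians as black bars and the median of all genes tested (-0.18) dashed. The lower calls are 3 NuRD genes and 1 methyl donor gene, and the higher call is Ehmt2.

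TET activity depends on 2-oxoglutarate, which the isocitrate dehydrogenases make. Of 9 such partners and cofactor enzymes, 0 were called, with a median of -0.23. Idh1 had -0.93 (adjusted p = 0.0866) and the mitochondrial Idh2, the most abundant of them, -0.50 (adjusted p = 0.0521). They were at -1.36, a call, and -0.63 without control replicate 2.

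Among 13 genes of base excision repair and its Gadd45 helpers, 0 were called and the median was 0.02. Lig3, the DNA ligase, was at 10.8, 3.57 and 11.1 FPKM against 2.42 to 2.71 FPKM (-1.29, adjusted p = 0.0571), Parp1 at -0.99 (adjusted p = 0.0617) and Apex1, the abasic site nuclease, at -0.69 (adjusted p = 0.0685). Lig3 (-1.75) and Parp1 (-1.36) were called lower without control replicate 2, and Apex1 was at -0.95. The Gadd45 genes, stress-inducible factors linked to demethylation, were singled out after their values were seen, and in them control replicate 2 lay nearer to the other controls than to IGF1. Gadd45b was at 12.9, 14.5 and 12.8 FPKM against 25.6, 23.5 and 26.5 FPKM. Its log2 fold change was 0.87 (SE 0.11, adjusted p = 0.0286, under the fold threshold), and 0.92 without control replicate 2. Gadd45g had 0.68 (adjusted p = 0.0429) and Gadd45a 0.48 (adjusted p = 0.0476), neither past the fold, and 0.79 and 0.50 without that library. With length and GC trends removed the values were 0.19 for Gadd45b (adjusted p = 0.416), 0.07 for Gadd45a and -0.26 for Gadd45g.

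Of 11 genes whose products make or recycle S-adenosylmethionine, the methyl donor of the DNMTs, 1 was called, lower. The RNA of 9 was lower in every IGF1 library than in any control, as was that of 37.4% of all genes. Mat2b, the regulatory subunit of the synthetase, fell from 105, 62.8 and 110 FPKM to 45.6, 42.0 and 43.4 FPKM (log2 fold change -1.02, SE 0.23, adjusted p = 0.0412), and was at -0.67 with length and GC trends removed. Its catalytic partner Mat2a was at 248, 79.9 and 256 FPKM against 63.3 to 64.9 FPKM (-1.40, adjusted p = 0.0624). In folate metabolism, Shmt1 had -1.59 (adjusted p = 0.0560) and Mthfd1 -1.45 (adjusted p = 0.0831). Without control replicate 2, 5 of the 11 were called lower, as were 20.6% of all genes. The values were then -1.28 for Mat2b, -1.95 for Mat2a, -2.17 for Shmt1 and -2.12 for Mthfd1.

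Markers of other cells moved in the same libraries as the members. The 9 B cell markers summed to 122, 498 and 121 FPKM in control and 474 to 493 FPKM in IGF1, with 0 of 7 tested called and a median log2 fold change of 1.16. That median was 1.83 without control replicate 2, and 5 of the 7 were called higher. In that fit 12.3% of all genes were called higher and 20.6% lower, the background for every marker list here. With all 6 libraries these shares were 1.98% and 4.63%. Of 10 neutrophil and monocyte genes tested, 4 (Ngp, Camp, S100a8 and S100a9) were called lower, while the list summed to 3282, 4351 and 3337 FPKM against 4493 to 4515 FPKM, and without control replicate 2 it had 5 lower and 2 higher calls. Of 12 HSC markers, 0 were called, with a median of -0.51 (-0.73 and 5 lower calls without control replicate 2), and the stem cell factor receptor Kit was at 105, 31.4 and 104 FPKM against 24.2 to 24.6 FPKM. Of the T and NK cell, erythroid, megakaryocyte and stromal lists 0 genes were called. The T and NK cell sum, mostly Nkg7 (356 to 787 FPKM), was 398, 810 and 388 FPKM in control and 802 to 820 FPKM in IGF1. The megakaryocyte sum was 52.9, 74.7 and 53.0 FPKM against 90.9 to 102 FPKM. The erythroid sum was 42.1 to 114 FPKM and the stromal sum, mostly Pecam1 (17.5 to 34.4 FPKM), 18.04 to 35.9 FPKM. Without control replicate 2, 1 T and NK cell gene and 2 megakaryocyte genes were called higher. Not 1 marker was at 0 in all libraries. The part of these cells in the values of Mbd2, Tdg or the writers was not tested.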

How the data were processed

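RNA of sorted HSCs was made into libraries with a stranded TruSeq kit and sequenced on a NovaSeq. Per the submitters' processing notes reads were trimmed with fastp and processed with HISAT2 and StringTie on GRCm38 (mm10), whereas the study's methods name RSEM. Whether counting used strand is not given in the sources used here. For every gene symbol the authors deposited 1 value in each library, taken as FPKM because the values of each gene rise in whole steps. The steps gave whole reads (within 0.02 reads) for 15640 of 15640 genes above 0, against 0.9% of jittered rows, and a depth of 15879605, 11429198 and 15973834 reads in control and of 12262662, 11206800 and 12756225 in IGF1 replicates 1, 2 and 3, on an approximate scale.

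The 10449 genes that reached 1 FPKM in 3 or more libraries were fitted by limma 3.58.1 (R 4.3.3) on log2(FPKM + 1), with a variance trend and no pairing, and with Benjamini-Hochberg adjustment over all of them. Fold changes on this scale understate those of low genes. A call needed a fold change over 2 and an adjusted p under 0.05, the study's thresholds. The fit was tested on simulated data. The exact permutation test was 2-sided. The alternatives were quantile, 75th percentile and median ratio scaling, other filters, pseudocounts and thresholds, no variance trend, library weights, a replicate block, removal of length and GC trends (lengths for 99.1% of genes), and leaving out each library. Limma-voom on recovered reads, and leaving out control replicate 2 with trends removed, were added after seeing the data. On the recovered reads, control replicates 1 and 3 differed by a mean chi-squared of 1.52 per gene and IGF1 pairs by 1.69 to 1.89. Read sampling alone gives about 1, and control replicates 1 and 2 differed by 229. The small p-values without control replicate 2 thus rest on a spread not far above read sampling. All were kept as separate libraries, and it is not stated that they came from separate mice.

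The members and lists were chosen with earlier results of these data known. In each wider list the text names called genes (up to 4), the 2 widest changes and the most abundant gene. Profile neighbors are given for the member with the smallest adjusted p. Other genes were chosen after their values were seen. Sequences and coordinates of Mbd2, and 1 gene of the wider lists that this rule names, are not reported here.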

Additional observations from a re-analysis of the deposited data

How the results depend on the processing

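Over 22 alternatives, Dnmt1, Uhrf1, Tdg and Mbd2 kept their direction (log2 fold changes of -1.47 to -0.64, -1.76 to -0.99, -2.18 to -1.24 and 0.54 to 1.43), as did Tet2 and Tet3 over 21. Other filters and thresholds, no variance trend and the replicate block do not change an estimate, so a direction could not turn under them. Calls arose with library weights (Dnmt1 -1.25, Uhrf1 -1.76, Tdg -2.17, Mbd2 1.43, so 3 members lower and 1 higher), without control replicate 2 with length and GC trends removed (-1.47, -1.58, -1.70 and 1.03, again 3 and 1) and, for Dnmt1 alone, with those trends removed from all 6 libraries (-1.12, 1 member). Directions turned for Dnmt3a (0.17 quantile, 0.18 75th percentile, 0.070 median ratio scaling), Dnmt3b (0.073 quantile, 0.017 75th percentile) and Trim28 (-0.062 quantile, -0.021 library weights). With the trends removed, in all 6 libraries with and without the replicate block, values were -0.18 for Tet1, -0.11 for Trim28, -0.32 for Mbd3 and -0.26 for Gadd45g, and without control replicate 2 they were -0.17, -0.14, -0.34 and -0.48, with -0.10 for Gadd45a and -0.0086 for Gadd45b. Leaving out 1 library gave -1.25 to -0.77 for Dnmt1, -1.76 to -1.05 for Uhrf1, -2.18 to -1.31 for Tdg, 0.55 to 1.43 for Mbd2, -0.015 to 0.19 for Tet1 and -0.022 to 0.064 for Trim28, and 0 to 1 members higher, 0 to 3 lower, 0 to 6 and 0 to 18 genes of the wider lists, and 0 to 1281 and 0 to 2157 of all genes. Higher and lower calls in the wider lists (1 and 4) were 3 and 2 under quantile normalization, 2 and 1 under 75th percentile, 2 and 2 under median ratio scaling, 0 and 2 with no filter, 2 lower at pseudocount 5, 6 and 18 with weights, 0 and 0 with trends removed, 2 higher under voom, 7 and 15 without control replicate 2 and trends, 4 and 10 by adjusted p alone and 3 and 7 at a fold over 1.5. All genes (207 and 484) gave 319 lower under quantile normalization, 333 and 209 under 75th percentile, 278 lower under median ratio scaling, 109 and 265 with no filter, 66 and 157 at pseudocount 5, 1276 and 2159 with weights, 127 and 293 with trends removed, 380 higher under voom, 868 and 1504 without control replicate 2 and trends, 654 and 1476 by adjusted p alone and 481 and 1165 at a fold over 1.5. Deviations from the group means correlated at -0.057, -0.05 and 0.006 between same-numbered libraries. Control replicate 2 dominates the control deviations, so these values cannot tell whether the replicate numbers pair the libraries. The replicate block left 0 and 0 genes called, in the wider lists and over all genes, with or without trends removed (1780 past the fold at an unadjusted p under 0.05 without). The cause of these changes was not tested. Depth was lowest for Tet2, with 158 to 243 reads, and of the same order for Mbd2 in control replicates 1 and 3 (188 and 194) and Tdg in IGF1 (214 to 255).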
